A study of Cynoglossus semilaevis with 6 samples.

Results

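The W chromosome features are the 464 of 34751 features in the deposited expression tables that lie on the same chromosome as the transcript XM_008335243.1, the W of the half-smooth tongue sole (Cynoglossus semilaevis). They were chosen by position alone, with no use of their levels. They span bases 1947 to 16441436 of the W in the coordinates of the deposited tables, and comprise 331 annotated mRNAs, 23 annotated non-coding or miscellaneous RNAs, 84 features listed under a gene identifier and 26 transcripts that the authors assembled as new. The Z chromosome held 1354 features and the other 20 chromosomes 31240. By accession, symbol or position, 378 of the W features were matched to a gene of the RefSeq table, of which 298 were protein coding, 59 were pseudogenes and 21 were long non-coding RNAs. The remaining 86 were not matched. Most matched genes carry only a locus number there, so their function cannot be stated.

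Liver RNA came from females aged 10 months that had been kept for 60 days at 15 ppt (the LS_L group) or at 30 ppt (the HS_L group), the salinity at which all of them had been reared. There were 3 tanks per group, and 3 livers of a tank were pooled into 1 library, so the replicates are tanks. The study compared the groups to describe how the liver responds to long-term low salinity. All fish were selected as females and no male library was analysed here, so expression from the W cannot be set against fish that lack it.

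In this flatfish genetic sex is set by a ZW system: genetic females carry a Z and a W and genetic males carry a pair of Z chromosomes. A W chromosome does not recombine with the Z over most of its length, and such chromosomes lose genes and gather pseudogenes and repeats as they age. Genes that remain on the W often have a homolog on the Z, the other member of a former pair of alleles, and reads from the copies can be told apart only where their sequences differ. The authors removed reads that mapped to several genes or positions, so the level of a W feature rests on reads placed uniquely.

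The libraries held between 16176691 and 19428744 reads that could be recovered from RPKM (reads per kilobase of feature and per 1000000 counted reads) and the feature lengths. Levels are given below as scaled RPKM, which is the deposited RPKM multiplied by a factor of 0.794 to 1.24 per library so that the libraries are compared at equal median-of-ratios size factors. Of 15 hepatocyte markers, 12 were matched and 11 had a mean of at least 1 scaled RPKM, with a summed level of 58933 to 191804 in the LS_L and HS_L libraries. Markers of other organs differed between libraries. Of 6 exocrine pancreas genes 2 were matched, prss1 and cpb1, and their summed scaled RPKM was 11.4, 64.8 and 71.5 in LS_L_1, LS_L_2 and LS_L_3, and 577, 2738 and 40.9 in HS_L_1, HS_L_2 and HS_L_3. Of 9 ovary and oocyte genes 8 were matched, 2 of which reached a mean of 1. The sum of the 8 was 0.308, 32.5 and 0.669 in LS_L and 42.3, 13.2 and 1.63 in HS_L. Among them bmp15, nobox, dazl and sycp3, each matched to 2 features, were at 0. Of 4 skeletal muscle genes 2 were matched, with a sum of 0.257 to 24.9 in LS_L and 3.47 to 39.7 in HS_L. Of 5 testis genes 4 were matched, with a sum of 0.771 to 1.57 over the libraries. Of 4 red blood cell genes 2 were matched, with a sum of 1.52 to 3.22, and alas2, matched to 2 features, was at 0. Reads shared by overlapping features were not counted, so a level of 0 in a gene with several features need not mean absent RNA.

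A minority of the W features reached a mean of 1 scaled RPKM in the liver. Of the 464, 347 had at least 1 read in some library, 221 had reads in all 6 libraries, 136 had a mean of at least 1 scaled RPKM, 23 had at least 10 and 3 had at least 100. The other 117 had no counted read in any library, and 57 of them overlap another feature. Reads shared by overlapping features were not counted, so these 57 need not be silent. A skipped exon of XM_008335237.1, with a count of 0, was listed in all 6 libraries in the transcript event files. Those files also list entries with a level of 0, so the listing does not show that its RNA was present. By kind, a mean of at least 1 was found for 97 of the 331 mRNAs (29.3%), 8 of the 23 non-coding or miscellaneous RNAs (34.8%), 11 of the 84 features listed by gene identifier (13.1%) and 20 of the 26 transcripts assembled by the authors (76.9%). The last were found by assembly from these libraries, so their detection is no independent result. Of the 59 pseudogenes 8 reached this level (13.6%), against 96 of the 298 protein-coding features (32.2%), and 42 of the pseudogenes had at least 1 read.

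Whether the W stood below other chromosomes depended on how overlapping features were treated. Reads were counted in union mode, in which reads shared by overlapping features are assigned to none of them, so that transcript variants of a gene on the same strand lose most of their reads. Overlap was taken here on the same strand only, and whether the read counting used strand is not given in the sources used here. Of all features in the series 17345 overlap another, and 3.29% of those had a mean of at least 1 scaled RPKM. On the W 377 features (81.2%) overlapped no other feature, against 50.1% in the whole series. Over all features, 29.3% of those on the W had a mean of at least 1 scaled RPKM, above the 26.8% of the whole series.

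Among features that overlap no other on the same strand, the order turned around. On the W 131 of 377 (34.7%) had a mean of at least 1 scaled RPKM, and on the other 21 chromosomes this share lay between 47.6% and 56.1%, with 49.9% on the Z. The median level on the W was 0.252 scaled RPKM, against 0.838 to 1.67 on the other chromosomes. At least 1 read was found for 84.1% of the W features and for 91.6% to 96.7% elsewhere. With mRNAs alone, the share at 1 scaled RPKM or more was 37.3% on the W (94 of 252) and 49.2% to 58.2% on the other chromosomes. By deposited RPKM in single libraries it was 37.1%, 30.8% and 28.4% on the W in LS_L_1, LS_L_2 and LS_L_3, and 34.2%, 33.2% and 33.4% in HS_L_1, HS_L_2 and HS_L_3. The lowest share on any other chromosome was 48.5%, 45.1% and 41.9% in LS_L and 51.1%, 44.4% and 44.3% in HS_L, so the W was lowest of the 22 chromosomes in 6 of 6 libraries. These shares are a description, since features of a chromosome are not replicates. The loss of reads that match both a W and a Z copy and a lower level of transcription cannot be told apart in these tables.

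**Figure D1:**
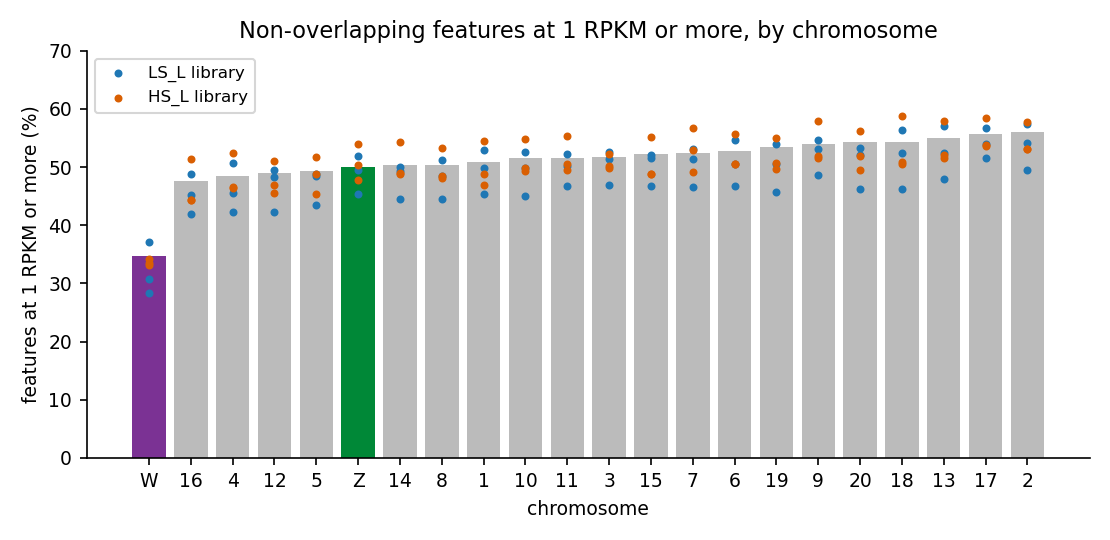
Share (%) at 1 RPKM or more among features that overlap no other feature on the same strand, for each chromosome. Bars give the share by mean scaled RPKM over 6 libraries and points the share by deposited RPKM in each library, and the W bar, at 34.7%, is the lowest of 22 bars, the others lying between 47.6% and 56.1%.

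Reads from the W made up a small share of each library. The W took 0.327%, 0.262% and 0.258% of the recovered reads in LS_L_1, LS_L_2 and LS_L_3, and 0.316%, 0.259% and 0.321% in HS_L_1, HS_L_2 and HS_L_3. The groups overlapped. The mean share was 0.282% ± 0.0386 (SD, n = 3) in LS_L and 0.299% ± 0.0344 (SD, n = 3) in HS_L, and a two-sided exact permutation test gave p = 0.9, where 0.1 is the smallest p that 3 libraries against 3 can give. The Z took between 3.53% and 3.70% of the reads of each library.

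A few features supplied most of the W reads. LOC103397139 alone supplied 31.1% of them over the 6 libraries, the first 3 features 52.7%, the first 10 66.2% and the first 50 86.4%. The first 3, LOC103397139, LOC103397136 and LOC103397057, supplied 39.9% of the W reads in LS_L_1 and between 51.6% and 60.7% in each of the other 5 libraries.

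Expressed features were spread along the whole W. In every megabase from the first to the seventeenth at least 1 feature reached a mean of 1 scaled RPKM, from 1 of 14 features in the sixteenth to 6 of 12 in the seventeenth. The tenth megabase held the most features, 41, of which 16 reached this level. Within it, a run of 12 features between bases 9388671 and 9509078 supplied 34.0%, 45.5% and 48.7% of the W reads in LS_L and 43.9%, 47.2% and 52.4% in HS_L. Of the 12, 8 reached 1 scaled RPKM, and the remainder lay between 0.0176 and 0.660. This run was delimited after its levels were seen.

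**Figure D2:**
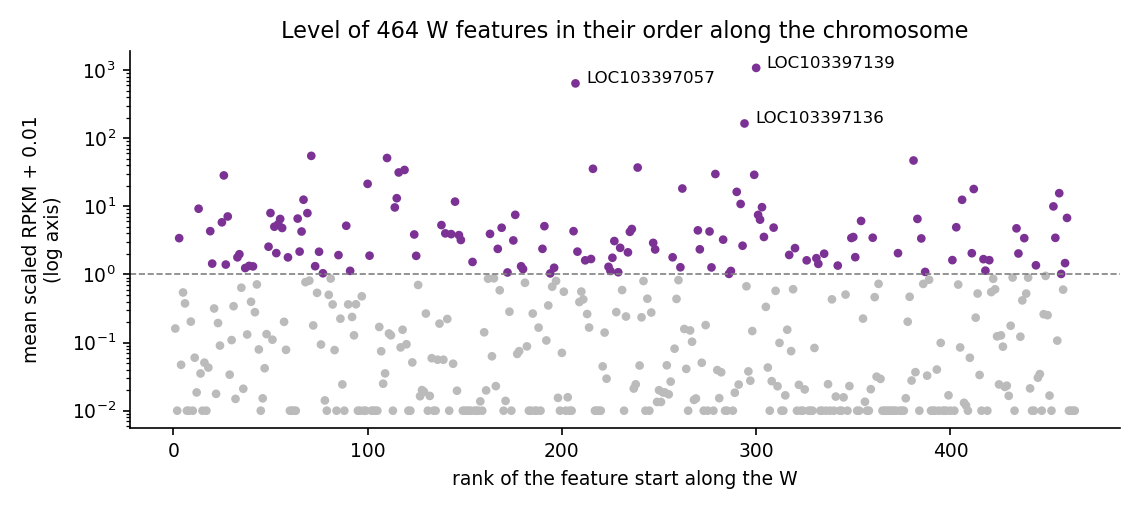
Mean scaled RPKM plus 0.01 (log axis) of the 464 W features in the order of their start along the chromosome. Purple points reach a mean of 1 (dashed line) and grey points do not, and expressed features occur along the whole order, with the most abundant, LOC103397139 at 1075, beside LOC103397136 at 164.

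The most abundant W feature was LOC103397139 (XM_008335370.1), a protein-coding gene on the minus strand at bases 9474445 to 9478465. Its scaled RPKM was 718, 1029 and 1345 in LS_L and 948, 880 and 1532 in HS_L. The third library of each group was the highest of its group, and the groups overlapped. LOC103397057 (XM_008335305.1, plus strand, bases 6443176 to 6446957) followed with 484, 619 and 908 in LS_L and 576, 436 and 799 in HS_L. Here too the third library was the highest in both groups. LOC103397136 (XM_008335368.1, minus strand, bases 9408336 to 9411119) was at 97.7, 126 and 162 in LS_L and at 128, 275 and 197 in HS_L, with HS_L_2 the highest. Its span lies under that of XM_008335374.1 on the opposite strand, which was at 1.59 to 4.93, and whether the counting used strand is not given in the sources used here. From these 3 features the levels drop to 55.0 and below.

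The assembled transcript Novel00295 (plus strand, bases 2049552 to 2050703) was at 54.5, 55.0 and 75.6 in LS_L and at 45.8, 51.8 and 47.3 in HS_L, so that every LS_L library was above every HS_L library. The log2 fold change (LS_L over HS_L, on log2 of scaled RPKM plus 1) was 0.33 (SE 0.22), and by limma its adjusted p was 0.880. LOC103397208 (XM_008335431.1, minus strand, bases 12083007 to 12084599) was at 75.5, 44.3 and 46.3 in LS_L and at 52.8, 33.6 and 29.6 in HS_L. LS_L_1 was the highest and the groups overlapped.

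The remaining features among the 15 most abundant were LOC103396969, described below with its Z copy, LOC103397084, LOC103397063, XM_008335228.1, LOC107990189, LOC112486389, LOC103397138, LOC103396890, LOC103396962 and LOC103397105. LOC112486389 is a long non-coding RNA gene to which the assembled transcript Novel00301, with a mean of 29.8 scaled RPKM, was matched by position alone. The mean of the others without LOC103396969 ran from 37.0 for LOC103397084 to 18.2 for LOC103397105. Within the 15, the highest library was at most 5.14 times the lowest, for LOC103396969, and 6 of the 15 varied by less than 2 times over the 6 libraries. None of the 15 had an unadjusted p under 0.05 in the comparison of salinities.

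**Figure D3:**
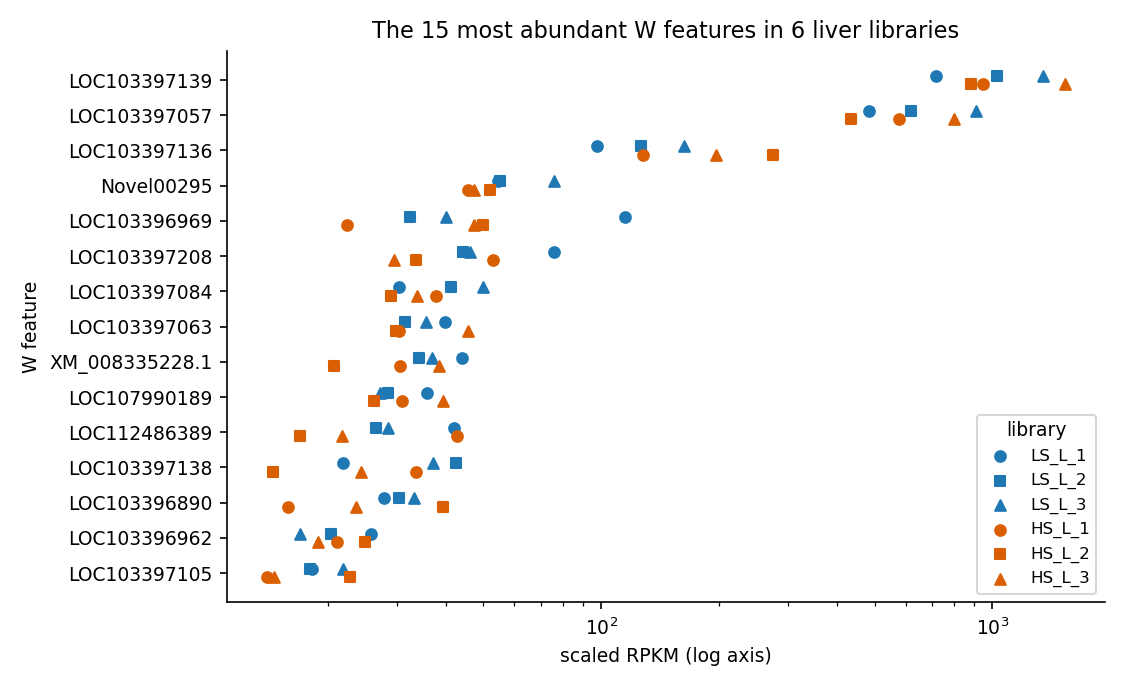
Scaled RPKM (log axis) of the 15 most abundant W features in each of the 6 libraries, blue for LS_L and orange for HS_L. The symbols of both groups overlap for every feature but Novel00295, whose LS_L libraries (54.5 to 75.6) lie above its HS_L libraries (45.8 to 51.8).

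Low and high salinity were compared with limma on log2(scaled RPKM + 1) over the 9297 features of the series with a mean of at least 1 scaled RPKM, 136 of them on the W. No W feature passed an adjusted p under 0.05 with a log2 fold change beyond 1, against 4 of 9297 in the whole series (0.0430%), and the lowest adjusted p on the W was 0.473. The series count changed when single libraries were left out, which also leaves fewer libraries in the fit. Leaving out HS_L_3, HS_L_1, LS_L_3 or LS_L_2 gave a count of 0, leaving out HS_L_2 gave 2 and leaving out LS_L_1 gave 17. The series count was also 0 with the replicate number as a block, and the W count was 0 throughout. At an unadjusted p under 0.05, 4 W features were higher in LS_L (2.94%, against 3.71% of all features tested) and 0 were lower (2.86% of all features tested). Limma-voom on the recovered reads gave 0 W calls as well, with 4 higher and 1 lower at an unadjusted p under 0.05. The 3 LS_L libraries lay above the 3 HS_L libraries for 9 W features (6.62%, against 7.79% of all) and below them for 6 (4.41%, against 4.90% of all). These shares are near or below those of the whole series. The filter used the mean over all 6 libraries, so features high in 1 group alone, such as LOC103397277, could enter both counts. At the same thresholds of adjusted p and log2 fold change the study called many more genes, with a test on read counts. Among those were LOC103396997 and LOC103397244 on the W.

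The size of the changes was also like that of other features. The median log2 fold change on the W was -0.03, with 63 features above 0 and 73 below, against 0.03 over all features tested. The median absolute log2 fold change was 0.20 on the W and 0.21 over all features, and the median SD within groups was 0.32 in both. A log2 fold change beyond 1 was found for 3 of the 136 (2.21%, against 3.86% of all), namely LOC103396997, LOC103397277 and LOC103397244. The highest of the 6 libraries was HS_L_2 for 44 W features (32.4%, against 23.5% of all) and LS_L_1 for 37 (27.2%, against 23.2%). It was HS_L_3 for 21 (15.4%, against 14.4%) and LS_L_3 for 15 (11.0%, against 18.3%). HS_L_1 was the highest for 11 (8.09%, against 11.8%) and LS_L_2 for 8 (5.88%, against 8.81%). Without LS_L_1 and HS_L_2, a setting chosen after seeing the data, 0 of 128 W features were called and 8 were higher and 3 lower at an unadjusted p under 0.05 (8.59%), with a lowest adjusted p of 0.210 by limma. In that setting 31 of 9189 features were called and 12.3% had an unadjusted p under 0.05.

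**Figure D4:**
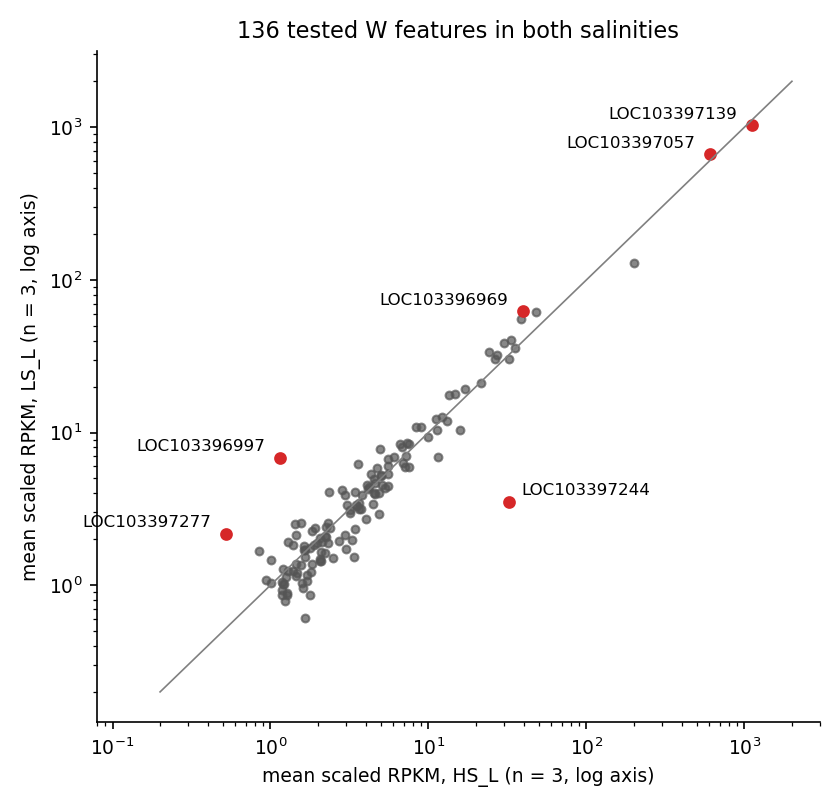
Mean scaled RPKM of the 136 tested W features in LS_L and HS_L (3 libraries each, log axes), with the line of equal levels. Most points lie close to the line, and LOC103396997 and LOC103397277 lie above it and LOC103397244 below it.

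The W feature with the lowest p was LOC103396997 (XM_008335243.1, minus strand, bases 4492885 to 4498587), a protein-coding gene that the study names endothelial lipase-like. In mammals endothelial lipase is a secreted enzyme that cleaves phospholipids of high-density lipoproteins. Its scaled RPKM was 3.11, 8.39 and 9.05 in LS_L and 2.00, 1.11 and 0.309 in HS_L. Every LS_L library was above every HS_L library, and LS_L_1 lay closest to the HS_L values. The group means were 6.85 ± 3.26 (SD, n = 3) and 1.14 ± 0.846 (SD, n = 3). The log2 fold change was 1.85 (SE 0.44), with an unadjusted p of 0.0043 and an adjusted p of 0.473 by limma, so it did not pass. Leaving out single libraries gave 1.53 to 2.26, with adjusted p-values by limma between 0.195 and 0.999. The gene stands in the study's own table of changed genes, which was chosen on these libraries.

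The transcript event files gave a second view of LOC103396997, in FPKM of the assembled transcripts. Its transcript end was at 2.98, 6.31 and 6.07 FPKM in LS_L and at 1.86, 0.792 and 0.209 FPKM in HS_L, in the same order as the deposited RPKM. Both rest on the same reads. A transcript with a retained intron was assembled in LS_L_1 (1.32 FPKM, beside 1.66 without the intron) and in LS_L_3 (2.59 FPKM, beside 3.47), and in none of the other 4 libraries.

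The other W features at an unadjusted p under 0.05 had means of 1.35 (LOC103397277), 4.92 (Novel00304) and 6.36 scaled RPKM (LOC103397140), against 3.99 for LOC103396997. LOC103397277 (XM_008335484.1, plus strand, bases 15654965 to 15680463) was at 2.34, 2.62 and 1.58 scaled RPKM in LS_L and at 0.369, 0.0860 and 1.11 in HS_L, with no overlap between the groups. Behind these values stood 70, 65 and 34 reads in LS_L and 10, 2 and 26 reads in HS_L. Its group means were 2.18 in LS_L and 0.522 in HS_L, so it passed the filter on the mean only through LS_L, where it was high. It did not enter the test where at least 10 reads in every library were required. Its log2 fold change was 1.10 (SE 0.29), with an unadjusted p of 0.0075 and an adjusted p of 0.537 by limma. The log2 fold change was 2.24 with a pseudocount of 0.1 and 2.59 with limma-voom. Novel00304 was at 5.51, 6.33 and 6.90 in LS_L and at 4.96, 1.91 and 3.91 in HS_L, also without overlap. The pseudogene LOC103397140, in the run of features around LOC103397139, was at 8.16, 7.29 and 7.93 in LS_L and at 3.37, 4.11 and 7.30 in HS_L, where HS_L_3 reached the lowest LS_L library. Their log2 fold changes were 0.72 (SE 0.29) and 0.62 (SE 0.26), both with an adjusted p of 0.759 by limma.

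Of the next features by p, Novel00316, LOC103396923 and LOC103397288 had all LS_L libraries above all HS_L libraries. LOC103397288 was the most abundant of them, at 16.4, 18.2 and 18.5 in LS_L and 11.8, 14.8 and 13.6 in HS_L. LOC103396909 and LOC103397070 were lower in every LS_L library. LOC103396909 varied little, at 1.38, 1.59 and 1.38 in LS_L and 2.06, 2.20 and 2.01 in HS_L. The unadjusted p of these 5 features ran from 0.0634 to 0.0801, and their log2 fold changes from -0.41 to 0.56. Among them, Novel00316 (mean 1.67 in LS_L and 0.842 in HS_L) and LOC103397070 (0.953 and 1.61) reached a mean of 1 in 1 group only.

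LOC103397244 (XM_008335463.1, plus strand, bases 13954620 to 13956007) is the only other W feature in the study's table of changed genes, where it is uncharacterized. Its scaled RPKM was 2.11, 4.32 and 4.15 in LS_L and 3.99, 81.7 and 11.3 in HS_L. HS_L_2 was 7.21 times the next library, and HS_L_1 lay within the LS_L range, so the groups overlapped. The log2 fold change was -1.97 (SE 0.95), with an unadjusted p of 0.078 and an adjusted p of 0.793 by limma. It was -0.83 without HS_L_2 (unadjusted p = 0.122 by limma) and between -2.86 and -1.72 without any 1 of the other libraries, with the largest change without HS_L_1 (unadjusted p = 0.011 by limma). With the replicate number as a block, its unadjusted p by limma was 0.0436, on the other side of 0.05. The pancreas markers were also highest in HS_L_2, at a sum of 2738 scaled RPKM. HS_L_1, at a sum of 577, had 3.99 of LOC103397244, and LS_L_2, at a sum of 64.8, had 4.32. The part of pancreas RNA in this difference was not tested. In the event files its transcript end was at 50.2 FPKM in HS_L_2 and at 0.447 to 4.96 FPKM in the other 5 libraries. Another feature matched by position to this gene, the assembled transcript Novel00305, did not peak in HS_L_2. It was at 0.323, 2.54 and 3.22 scaled RPKM in LS_L and at 1.68, 1.73 and 2.74 in HS_L, with a log2 fold change of -0.16 (SE 0.44).

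For 2 W genes a presumed Z copy could be named, by product name or by synonym alone. No protein sequences were compared. LOC103397733 (XM_008336101.1, bases 9825429 to 9831062 of the Z, minus strand) is also called endothelial lipase-like, and is the symbol lipg of the RefSeq table. Product names came only from the study's table of changed genes, so a Z copy outside it could not be found by product name. Here the deposited RPKM is used, since copies are compared within a library. The W copy, LOC103396997, was at 3.91, 8.23 and 7.32 RPKM in LS_L and at 2.45, 0.988 and 0.291 RPKM in HS_L. The Z copy was at 19.7, 27.1 and 25.1 RPKM in LS_L and at 6.57, 8.71 and 1.46 RPKM in HS_L. The W copy was below the Z copy in 6 of 6 libraries. The difference on log2(RPKM + 1) was -1.61 ± 0.52 (SD, n = 6), with a two-sided exact sign-flip permutation p of 0.03125, the smallest that 6 libraries can give, and 0.0625 after adjustment over the 2 pairs tested. The reads behind the values were 154, 345, 323, 90, 43 and 12 for the W copy and 797, 1165, 1136, 248, 389 and 62 for the Z copy, in the order of the libraries.

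For both lipase copies the LS_L libraries lay above the HS_L libraries, with no overlap. The pair was found through the study's table of changed genes, chosen on these libraries, so a change in both copies is no independent result. The Z copy had a log2 fold change of 2.14 (SE 0.54), with an unadjusted p of 0.0055 and an adjusted p of 0.503 by limma, so it did not pass either. The W to Z log2 ratio, taken on RPKM + 1, was -2.08, -1.60 and -1.65 in LS_L and -1.13, -2.29 and -0.93 in HS_L. The added 1 weighs most on HS_L_2 and HS_L_3, where the W copy was below 1 RPKM, so these are not ratios of the RPKM printed above. The groups overlapped, with a difference of -0.32 between them (two-sided exact permutation p = 0.5, with 3 against 3 and a smallest possible p of 0.1). This difference turned to 0.21 with a pseudocount of 0.1, so its direction depends on the pseudocount. How many reads were shared by both copies and therefore removed is not known here.

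The RefSeq table gives LOC103396969 on the W (XM_008335217.1, minus strand, bases 3376774 to 3378332) the synonym GADD45G1, and gadd45ga on the Z (XM_008336033.1, plus strand, bases 6245121 to 6246680) the synonym GADD45G2. Gadd45 proteins are small stress-induced proteins that act in growth arrest and DNA repair in mammals. This pair was added after its levels were seen. The W copy was at 145, 31.9 and 32.4 RPKM in LS_L and at 27.4, 44.1 and 44.3 RPKM in HS_L. The Z copy was at 143, 81.3 and 33.6 RPKM in LS_L and at 122, 33.6 and 43.8 RPKM in HS_L. The W copy was lower in 3 of 6 libraries. The W to Z log2 ratio, also on RPKM + 1, was 0.02, -1.32 and -0.05 in LS_L and -2.11, 0.38 and 0.02 in HS_L. The copies were thus close to equal in LS_L_1, LS_L_3 and HS_L_3, and the W copy was lower in LS_L_2 and HS_L_1. The mean difference was -0.51 ± 0.98 (SD, n = 6; exact sign-flip permutation p = 0.375), smaller than the spread between libraries. By salinity the W copy had a log2 fold change of 0.49 (SE 0.54) and the Z copy of 0.38 (SE 0.49), both below their spread.

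**Figure D5:**
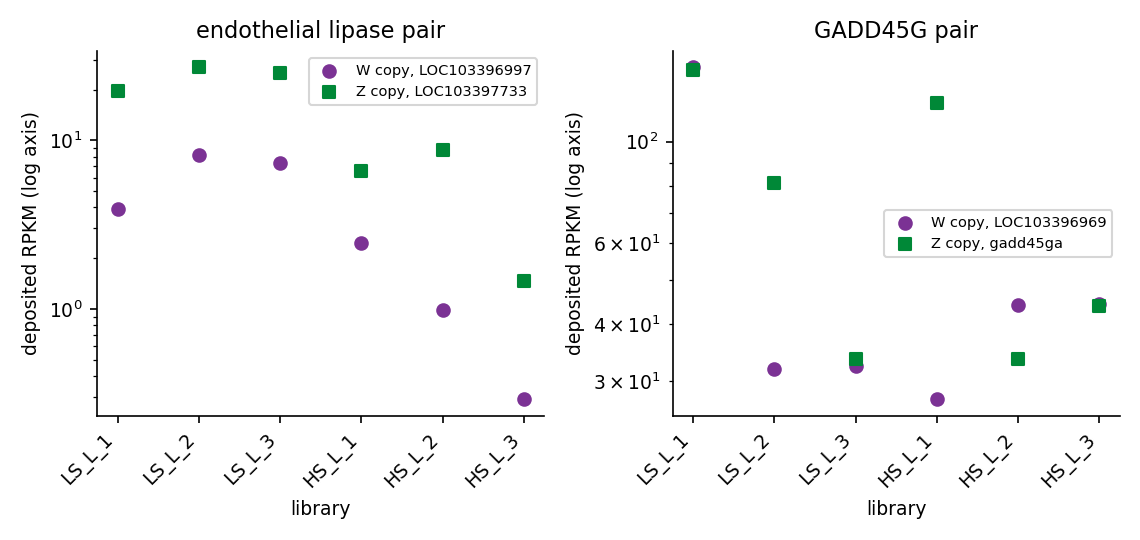
Deposited RPKM (log axis) of the W copy (purple circles) and the Z copy (green squares) of the lipase and GADD45G genes in each library. The W copy of the lipase gene lies below the Z copy in 6 of 6 libraries, and the GADD45G copies cross, with the W copy lower in 3 of 6.

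Symbols other than a locus number were matched to 6 W features of 5 genes. Mthfd2, a mitochondrial enzyme of folate metabolism, was at 9.47, 2.47 and 2.08 scaled RPKM in LS_L and at 1.78, 9.05 and 2.95 in HS_L, high in LS_L_1 and HS_L_2 and low in the other 4 libraries. Its log2 fold change was 0.01 (SE 0.62). Mocs2, which acts in the synthesis of the molybdenum cofactor, was steadier, at 1.61, 2.30 and 1.22 in LS_L and 1.73, 1.45 and 1.69 in HS_L, with a log2 fold change of 0.03 (SE 0.21). The uncharacterized gene cwh2orf68 was at 0.315 to 0.735 and the 2 features of sh2b3, an adaptor protein of cytokine signalling, were at 0 to 0.168, and neither gene entered the test.

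Of genes known for sex differentiation, the W carries figla, which in mouse encodes a transcription factor of the oocyte that activates egg coat genes. It was at 0, 0.128 and 0.0739 scaled RPKM in LS_L and at 0.469, 0 and 0 in HS_L, resting on 0, 2, 1, 8, 0 and 0 reads, and did not enter the test. Its highest library, HS_L_1, also had the highest level of zar1, another oocyte gene, at 34.0 scaled RPKM. LS_L_2, next for both genes, had 26.7 of zar1 and 2 reads of figla. The oocyte genes gdf9 and ddx4 were likewise highest in HS_L_1 (5.13 and 2.68) and next in LS_L_2 (3.42 and 2.28). HS_L_2, with 10.7 of zar1, had 0 reads of figla. The part of ovary RNA in this was not tested. In the whole series 18 features of 14 genes matched the list of sex differentiation genes, and figla was the only one on the W. Dmrt1, the Z-linked gene of testis determination in this fish, was at 0 in every library but HS_L_1, where its features summed to 0.0509. Reads shared by its 3 features, where they overlap, were not counted. Of the 18, 3 were tested (ctnnb1, neurl3 and sf1, a symbol that a splicing factor also bears), 0 were called and 0 had an unadjusted p under 0.05. Their median log2 fold change was -0.10, which is the value of sf1, against 0.03 over all features tested.

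Of the extracellular lipases, 5 features of 5 genes were matched and 4 were tested. None was called, and 2, the W and Z copies of endothelial lipase, had an unadjusted p under 0.05 and were higher in LS_L. The others tested were lipoprotein lipase (lpla, log2 fold change -1.02, SE 0.50) and hepatic lipase (lipca, log2 fold change -0.03, SE 0.52). The median of the 4 was 0.91, against 0.03 over all features tested, and the study had picked members of this list from these libraries. The study also lists the bile salt-activated lipase-like genes LOC103389307 and LOC103389284 and the inactive pancreatic lipase-related LOC103387723, all lower in LS_L. Their symbols are locus numbers, and the product names sought were endothelial, hepatic triacylglycerol and lipoprotein lipase alone. They were therefore not matched, while the W and Z copies of endothelial lipase were matched by product name. The median thus holds lipases that the study lists as higher and leaves out those that it lists as lower.

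The event files listed 1034 to 1148 events per library on the W (starts, ends and splicing differences), 2.72% to 2.92% of those in the genome. Of these, 431 to 465 were transcript starts and 401 to 417 were ends. Retained introns numbered 43, 39 and 31 on the W in LS_L and 51, 48 and 38 in HS_L, and skipped exons 30, 19 and 24 in LS_L and 21, 23 and 25 in HS_L. The groups overlapped in both counts.

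Few of these splicing events recurred. Of 146 distinct retained introns on the W 69.2% were listed in 1 library only and 6 in all 6 libraries. Of 64 distinct skipped exons 34 were listed in 1 library and 8 in all 6, and of 110 alternative exon ends 70 and 7. The 6 recurring retained introns belonged to LOC103396873, LOC103396925, XM_008335180.1, XM_008335182.1, XR_523422.1 and LOC103397064. No retained intron or skipped exon was listed in all 3 LS_L libraries and in no HS_L library, and 1 retained intron was listed in all 3 HS_L libraries alone. Of the alternative exon ends, 1 was listed in all 3 LS_L libraries alone and 1 in all 3 HS_L libraries alone. The same counts for the other chromosomes are not given here. Whether the W differs from them in recurrence or in events of 1 group is therefore not known. The event files also list entries at 0 FPKM, such as figla in LS_L_1, so a listed event need not mean that its RNA was present. The depth behind an event that is absent from a library is not known.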

How the data were processed

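Liver RNA of 6 pools (3 LS_L, 3 HS_L) was sequenced by the authors. Per the study's methods, cleaned reads were aligned with TopHat to the tongue sole genome, reads mapping to several genes or positions were removed, and the rest were counted with HTSeq in union mode. The submitters' processing notes name DESeq. The authors deposited RPKM per feature and library, a signal per feature and group (the average of its 3 libraries after division by size factors), and FPKM of assembled transcripts with their events, for which the tool is not given in the sources used here. Coordinates are those of the deposited tables, whose build is not given there in words, and columns of the authors' own comparisons (fold changes and p-values) were not used.

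RPKM times length gave whole reads (within 0.1 read) for at least 99.7% of the values in each library. Reads divided by median-of-ratios size factors matched the deposited group signal within 0.1% for 99.99% of features. Scaled RPKM (pseudocount 1, mean of at least 1) of 9297 features was compared with limma 3.58.1 in R 4.3.3 (trend and robust), with Benjamini-Hochberg adjustment over all of them, in a fit with no covariate. P-values measure the spread between tank pools. Single values were compared with exact permutation tests. Python 3.11.15 with pandas 2.3.3 and numpy 2.4.6 was used. On simulated data for this comparison with 9297 features, 174 of 200 changed features were recovered, 0 with the wrong sign, with 7 false calls. These counts hold for the simulated data alone. How large a change on the W could go unseen at the spread between the tank pools was not tested. Overlap was counted on the same strand, leaving aside 20 features that span more than 1000000 bases.

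W features were named from RefSeq accessions (149), symbols (56) or position (173, with a shared length of at least 0.5). The match by position used whole spans without regard to strand or exons, so it does not show that feature and gene are the same. Named in the text are LOC103396997, W features called or in the study's table of changed genes, the 15 most abundant, the 10 tested with the lowest p, W copies with their Z partner, and W members of the lists of sex differentiation genes and extracellular lipases. XM_008335374.1, Novel00305, the recurring splicing events, the run of features in the tenth megabase and the GADD45G pair were chosen after their values were seen. Members and lists were chosen with earlier results of these data known. A list of repeat-derived genes was not filled, since product names were at hand only for genes in the study's table of changed genes. Same-numbered libraries of the groups, by the replicate number of the labels, had deviations from the group means that correlated at 0.17, 0.17 and 0.23 across features, all over 0.1, so the replicate number entered an alternative fit as a block. The 3 highest crossed pairs were at 0.12, 0.16 and 0.22. Other alternatives were library size or upper quartile scaling, limma-voom, no filter, a minimum of 10 reads per library, a pseudocount of 0.1, features without overlap, and each library left out.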

Additional observations from a re-analysis of the deposited data

How the results depend on the processing

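No W feature was called under any of the settings tried, while the 4 calls of the whole series became 0 with the replicate block, 10 with scaling by library size only, 1 with upper quartile scaling, 1 with no filter, 7 with at least 10 reads in every library and 0 to 17 without single libraries. At an unadjusted p under 0.05, the 4 higher and 0 lower W features became 2 and 2 with scaling by library size only and 2 and 2 with upper quartile scaling. With no filter 4 of 347 were higher and 5 lower, with at least 10 reads in every library 3 and 2, with limma-voom 4 and 1, and with the replicate number as a block 6 and 2. With the block LOC103397244 passed to an unadjusted p of 0.0436. Leaving out single libraries gave 2 to 5 higher and 0 to 6 lower, the 6 lower without HS_L_1 and the lowest count of higher features, 2, without LS_L_1, LS_L_2 or LS_L_3. Without LS_L_1 and HS_L_2, chosen after seeing the data, they were 8 and 3. The share of W features at an unadjusted p under 0.05 lay below that of all features in each setting, at 2.94% against 6.57% in the fit reported, 2.96% against 5.02% with library size only, 2.94% against 6.78% with upper quartile scaling, 2.59% against 4.81% with no filter, 3.31% against 6.13% with at least 10 reads, 3.68% against 6.16% with limma-voom, 5.88% against 8.48% with the block, 1.47% to 7.35% against 3.61% to 7.65% without single libraries and 8.59% against 12.3% without LS_L_1 and HS_L_2. The difference between these shares was not tested. The cause of these shifts was not tested. The log2 fold change of LOC103396997 ranged from 1.53 to 2.72 over all settings, and its adjusted p from 0.195 to 0.999 by limma, with 1.85 and 0.509 under the block.

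The difference between salinities in the W to Z log2 ratio of the lipase pair, -0.32 on RPKM + 1, was 0.21 with a pseudocount of 0.1. That of the GADD45G pair, 0.12, was -0.12, -0.08 and -0.65 without LS_L_1, LS_L_3 and HS_L_1, and ranged from -0.65 to 0.59 over the libraries left out. The share of reads on the W kept its direction, lower in LS_L, in the 10 alternatives, at differences of -0.0390 to -0.00182 percentage points. Alternatives that need the identity of W and Z proteins were not run. Depth limits the weakest features: a floor of 3 reads lies above the 2 reads of figla in LS_L_2.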
